A study of Mus musculus with 20 samples.

Results

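Fos, Fosb, Fosl2, Jun, Junb, Jund and Atf3 encode subunits of AP-1 (activator protein 1), a transcription factor built from pairs of proteins of the bZIP class. They are 7 of 8 named AP-1 genes that could be measured, out of 22180 genes on the array. The family was selected on measured values, the levels of Fos, Fosb and Atf3, which were high in only 1 of the 4 groups, the vehicle-treated skin of chow-fed mice. Comparisons that involve that group are therefore given below as a description, with no p for these genes and nothing read from their counts. The eighth gene, Fosl1, is carried by a feature that is assigned to another gene as well and was not analysed here.

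AP-1 proteins of the Fos class cannot pair with themselves and act with a Jun partner, whereas Jun proteins can also pair with each other. Fos, Fosb, Jun, Junb and Atf3 are immediate-early genes: their transcripts are made within minutes of a growth factor, a wound or another stress and are quickly broken down again, so that their amount at any moment follows recent signalling through MAP kinases. In epidermis AP-1 takes part in keratinocyte growth, differentiation and wound repair, and combined loss of Jun and Junb in mouse epidermis is known to lead to a psoriasis-like inflammation.

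The skin came from the shaved abdomen of C57/B6 mice aged 9 weeks, 1 array per mouse and 5 mice per group. HFD-IMQ mice ate a high fat diet (HFD) and received 62.5 mg of cream with 5% imiquimod (IMQ), an agonist of Toll-like receptor 7, each day for 5 days. HFD-vehicle mice ate the same diet and received vehicle. CD-IMQ and CD-vehicle mice ate control chow (CD) and received the imiquimod cream or vehicle, and all skin was taken 24 h after the last dose. The labels give the same strain for all groups and name no allele that differs between them. Values are log2 expression values, normalised by the authors, so that a difference of 1 is a 2-fold difference.

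The array medians lay between 2.86 and 3.04, and no array stood apart by its scale. HFD-vehicle mouse 3 differed most from its group over all genes, with 42.8% of the summed squared distances to the group mean, against 30.0% for HFD-IMQ mouse 4 and 28.4% for CD-vehicle mouse 3, the highest shares in their groups. All 7 measured epidermal markers lay above the median of all values in these samples, among them Krt14, Krt1 and Lor, and Krt5 was not analysed here. Red blood cell markers could not be checked, since none of their genes had a feature of its own.

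The promoters of Fos, Fosb, Jun, Junb and Atf3 are shown because these 5 genes differed together between the groups, as described below. Each runs for 300 bases, from 250 before to 50 after the start of the gene, and is written 5′ to 3′ on the strand of the gene, from RefSeq on GRCm38.p6. Their positions are chr12:85473640-85473939 on the plus strand for Fos, and chr7:19309996-19310295 for Fosb, chr1:191183284-191183583 for Atf3, chr8:84978699-84978998 for Junb and chr4:95052173-95052472 for Jun, these 4 on the minus strand. Capitals mark TGACG, or its reverse complement CGTCA, the first letters of the cAMP response element (CRE) that CREB and ATF proteins bind, and in Jun they mark TGACATCA, a variant of the AP-1 site.
Fos: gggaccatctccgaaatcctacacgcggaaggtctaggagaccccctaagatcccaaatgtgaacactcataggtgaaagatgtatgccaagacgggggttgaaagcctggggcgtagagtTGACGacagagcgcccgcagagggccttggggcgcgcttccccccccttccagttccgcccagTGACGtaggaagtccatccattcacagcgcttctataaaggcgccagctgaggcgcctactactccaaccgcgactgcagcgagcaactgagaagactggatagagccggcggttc
Fosb: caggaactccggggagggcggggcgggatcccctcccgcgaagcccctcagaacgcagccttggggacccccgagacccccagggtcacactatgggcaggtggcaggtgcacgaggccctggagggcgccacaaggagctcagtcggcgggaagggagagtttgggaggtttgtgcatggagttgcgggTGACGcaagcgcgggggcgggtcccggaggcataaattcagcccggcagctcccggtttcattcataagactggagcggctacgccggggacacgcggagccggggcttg
Atf3: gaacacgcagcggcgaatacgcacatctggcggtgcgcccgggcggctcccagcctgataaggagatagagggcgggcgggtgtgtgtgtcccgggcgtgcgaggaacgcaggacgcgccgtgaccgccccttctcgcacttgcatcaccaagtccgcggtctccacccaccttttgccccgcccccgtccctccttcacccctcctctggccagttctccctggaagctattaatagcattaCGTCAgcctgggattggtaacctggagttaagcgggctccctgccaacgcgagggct
Junb: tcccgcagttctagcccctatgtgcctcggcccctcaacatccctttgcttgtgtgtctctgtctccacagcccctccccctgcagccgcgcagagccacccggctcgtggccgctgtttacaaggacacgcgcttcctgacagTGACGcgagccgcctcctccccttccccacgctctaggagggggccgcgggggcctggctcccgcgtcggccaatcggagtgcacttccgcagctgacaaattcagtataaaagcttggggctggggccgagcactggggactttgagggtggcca
Jun: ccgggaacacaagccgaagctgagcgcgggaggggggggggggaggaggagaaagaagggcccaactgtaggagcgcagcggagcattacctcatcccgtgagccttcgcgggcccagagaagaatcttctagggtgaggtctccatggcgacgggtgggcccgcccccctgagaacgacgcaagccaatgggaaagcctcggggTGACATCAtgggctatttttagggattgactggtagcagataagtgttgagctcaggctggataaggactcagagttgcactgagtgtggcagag

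The letters TGACG occurred on either strand in 4 of the 7 AP-1 promoters, those of Fos, Fosb, Junb and Atf3, and in 20.8% of 32851 mouse promoters of the same length. Fos held the string at 129 and at 66 bases before its start, Fosb at 60, Junb at 106 and Atf3, on the opposite strand, at 7. TGACATCA occurred in Jun alone among the AP-1 promoters, at 45 bases before the start, and in 3.62% of all promoters. The full CRE TGACGTCA was in 1.79% of all promoters and the AP-1 site TGANTCA in 7.81%, and neither was in a window of the 7 genes. CCAAT was in the windows of Jun, Junb and Atf3 and in 37.4% of all promoters. The serum response element was in none of the 7 windows and in 1.63% of all promoters. Bases outside the windows were not searched, so a serum response element farther from the start of a gene would have been missed. Both strands were read for every motif, TGACG is also part of the full CRE, and a match describes letters only.

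Among the Fos-class genes, Fos covered the widest range of levels. It measured 6.36, 5.83, 5.71, 4.06 and 5.93 in HFD-IMQ mice 1 to 5 and 5.63, 5.83, 5.89, 3.92 and 5.93 in HFD-vehicle mice 1 to 5. CD-IMQ mice had 5.84, 4.89, 4.68, 3.97 and 4.87, against 8.05, 8.33, 8.55, 8.06 and 7.10 in CD-vehicle mice. Every CD-vehicle mouse thus lay above all 15 other mice, and in each of the other groups mouse 4 had the lowest value. The means were 5.58 ± 0.88 in HFD-IMQ, 5.44 ± 0.86 in HFD-vehicle, 4.85 ± 0.67 in CD-IMQ and 8.02 ± 0.56 in CD-vehicle skin (SD, n = 5 each). Fos was thereby 9.01-fold lower in CD-IMQ than in CD-vehicle skin (log2 difference -3.17 ± 0.41, SE) and 5.97-fold lower in HFD-vehicle than in CD-vehicle skin (-2.58 ± 0.41). The order of the group means was CD-vehicle, HFD-IMQ, HFD-vehicle and CD-IMQ, and the ranges of the 3 lower groups overlapped.

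Fosb, whose product also pairs with Jun proteins and whose splice forms include a long-lived one known from mouse brain, was flat outside CD-vehicle skin. Its values were 4.45, 3.98, 4.18, 3.80 and 4.26 in HFD-IMQ mice, 4.13, 4.12, 3.66, 4.01 and 4.22 in HFD-vehicle mice and 4.17, 3.74, 4.0, 4.43 and 4.04 in CD-IMQ mice. In CD-vehicle mice they were 7.03, 6.86, 6.42, 5.44 and 5.49. The lowest CD-vehicle mouse stood 0.99 log2 units above the highest other mouse, and for Fos that gap was 0.74. Group means were 4.13 ± 0.25, 4.03 ± 0.22 and 4.08 ± 0.25 in HFD-IMQ, HFD-vehicle and CD-IMQ skin and 6.25 ± 0.75 in CD-vehicle skin (SD, n = 5 each). Fosb was 4.51-fold lower in CD-IMQ than in CD-vehicle skin (-2.17 ± 0.24, SE) and 4.67-fold lower in HFD-vehicle than in CD-vehicle skin (-2.22 ± 0.24).

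Fosl2, a Fos-class gene known from differentiating keratinocytes, varied little. HFD-IMQ mice had 6.23, 6.11, 6.14, 6.02 and 6.27, and HFD-vehicle mice had 6.54, 6.34, 6.70, 6.20 and 6.15. Values were 6.48, 6.13, 6.39, 6.17 and 6.30 in CD-IMQ mice and 6.64, 6.87, 6.56, 6.05 and 6.16 in CD-vehicle mice. The 4 groups overlapped, and the CD-vehicle mice with the lowest values, mice 4 and 5, lay below most CD-IMQ mice. Its log2 difference was -0.16 ± 0.14 for CD-IMQ against CD-vehicle and -0.07 ± 0.14 for HFD-vehicle against CD-vehicle (SE).

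Atf3, a stress-induced bZIP protein that represses or activates depending on its partner, was at 6.08, 5.36, 5.39, 4.83 and 4.72 in HFD-IMQ mice and at 4.88, 5.05, 4.77, 4.95 and 4.84 in HFD-vehicle mice. CD-IMQ mice had 5.41, 5.31, 5.68, 5.05 and 5.45, against 7.87, 7.67, 8.53, 6.37 and 6.28 in CD-vehicle mice. All 5 CD-vehicle mice lay above the other 15, by 0.19 at the closest, and the narrowest group was HFD-vehicle. The means were 5.28 ± 0.54 in HFD-IMQ, 4.90 ± 0.11 in HFD-vehicle, 5.38 ± 0.23 in CD-IMQ and 7.34 ± 0.98 in CD-vehicle skin (SD, n = 5 each). Atf3 was 3.90-fold lower in CD-IMQ than in CD-vehicle skin (-1.96 ± 0.32, SE) and 5.44-fold lower in HFD-vehicle than in CD-vehicle skin (-2.44 ± 0.32).

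**Figure D1:**
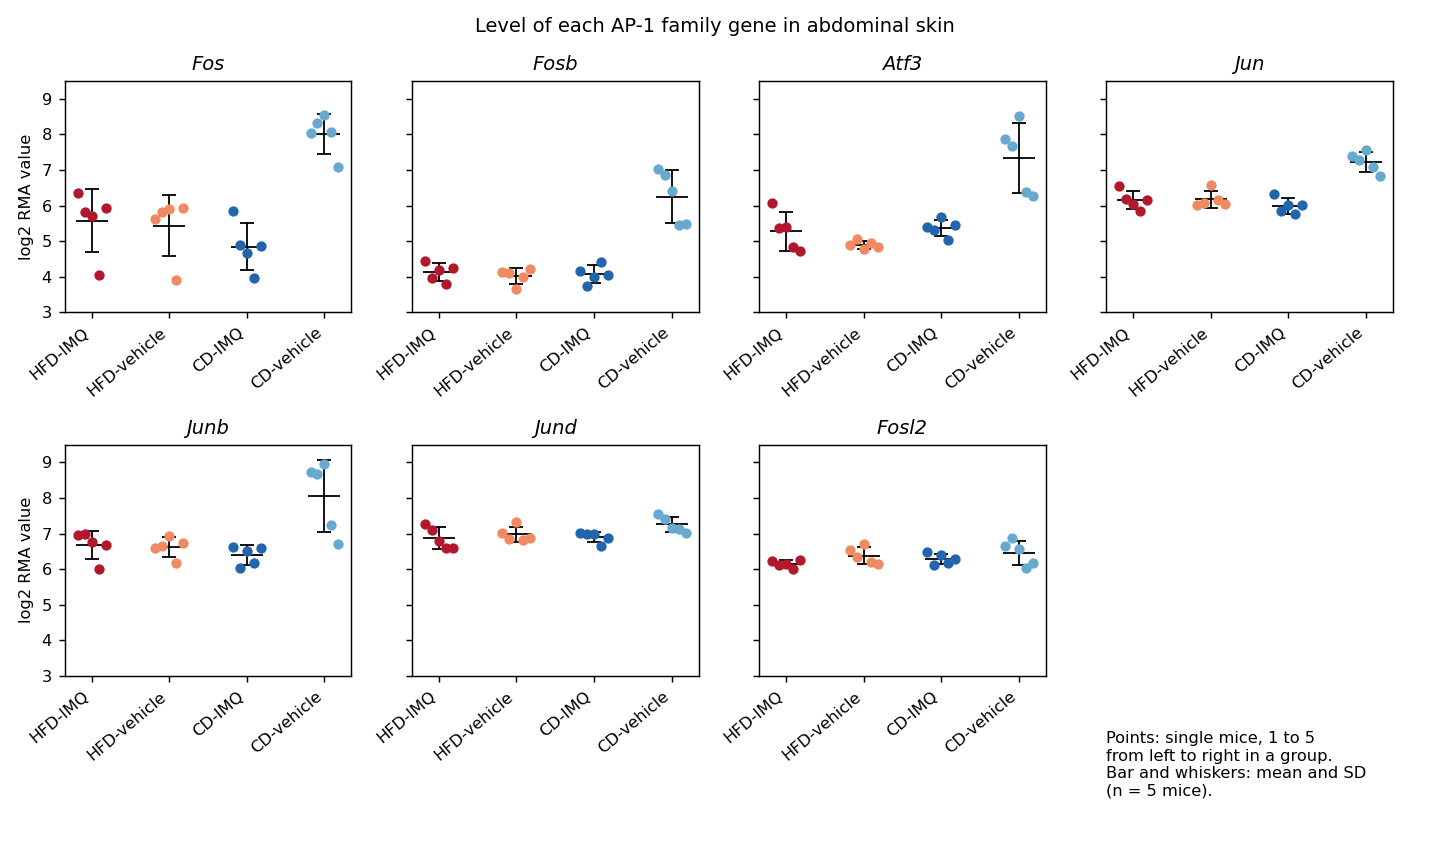
Log2 expression of the 7 measured AP-1 genes, 1 panel per gene, in HFD-IMQ, HFD-vehicle, CD-IMQ and CD-vehicle skin, left to right; each point is 1 mouse and the bar with whiskers is the group mean with its SD (n = 5). Fos, Fosb, Jun and Atf3 are higher in all 5 CD-vehicle mice than in the other 15 mice, Junb is so in 4 of them, and Fosl2 overlaps between groups, as does Jund except for CD-IMQ against CD-vehicle.

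Of the Jun-class genes, Jun itself, the main transactivating partner of Fos, shared the separation. Its levels were 6.55, 6.19, 6.04, 5.84 and 6.16 in HFD-IMQ mice, 6.03, 6.08, 6.59, 6.16 and 6.04 in HFD-vehicle mice and 6.34, 5.84, 6.01, 5.77 and 6.02 in CD-IMQ mice. CD-vehicle mice had 7.38, 7.28, 7.58, 7.10 and 6.82, each above all 15 others. Means were 6.16 ± 0.26 in HFD-IMQ, 6.18 ± 0.23 in HFD-vehicle, 5.99 ± 0.22 in CD-IMQ and 7.23 ± 0.29 in CD-vehicle skin (SD, n = 5 each). Jun was 2.36-fold lower in CD-IMQ than in CD-vehicle skin (-1.24 ± 0.15, SE) and 2.07-fold lower in HFD-vehicle than in CD-vehicle skin (-1.05 ± 0.15).

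Junb, which competes with Jun for partners and can dampen its activity, split the CD-vehicle group. Values were 6.97, 6.98, 6.78, 6.0 and 6.69 in HFD-IMQ mice, 6.60, 6.66, 6.94, 6.16 and 6.72 in HFD-vehicle mice and 6.64, 6.02, 6.52, 6.18 and 6.60 in CD-IMQ mice. They were 8.74, 8.67, 8.95, 7.24 and 6.70 in CD-vehicle mice, so that the first 4 lay above all 15 other mice and mouse 5 lay within the range of both HFD groups. Junb was 3.18-fold lower in CD-IMQ than in CD-vehicle skin (-1.67 ± 0.32, SE) and 2.72-fold lower in HFD-vehicle than in CD-vehicle skin (-1.44 ± 0.32). The call for HFD-vehicle against CD-vehicle was lost without CD-vehicle mouse 1, without CD-vehicle mouse 3 and in a fit on these 2 groups alone.

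Jund, which is expressed in most resting cells, differed less between groups than Jun and Junb. HFD-IMQ mice had 7.27, 7.11, 6.81, 6.60 and 6.60, and HFD-vehicle mice had 7.01, 6.84, 7.33, 6.83 and 6.88. CD-IMQ mice had 7.02, 6.98, 6.99, 6.66 and 6.89, against 7.55, 7.42, 7.16, 7.14 and 7.03 in CD-vehicle mice. The lowest CD-vehicle mouse was thus only just above the highest CD-IMQ mouse, and the groups overlapped otherwise. The log2 difference was -0.35 ± 0.14 for CD-IMQ against CD-vehicle and -0.28 ± 0.14 for HFD-vehicle against CD-vehicle (SE). A second Jund feature on the array gave other directions, with means of 5.26 in HFD-IMQ, 4.91 in HFD-vehicle, 5.24 in CD-IMQ and 4.97 in CD-vehicle skin, so that no direction is drawn for Jund.

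The rule that chose the genes used the CD-vehicle levels, so the following counts restate that choice in part and are not evidence. In CD-IMQ against CD-vehicle skin, Fos, Fosb, Atf3, Jun and Junb, 5 of the 7, were below the limma threshold (adjusted p below 0.05, called below) and lower, where 7.02% of all genes were lower and 10.9% were called in either direction, and the median log2 difference of the 7 was -1.67 against 0.02 over all genes. The groups did not overlap for 6 of the 7, lower in CD-IMQ, as for 5.1% of all genes; the sixth is Jund by its brighter feature, and its second feature ran the other way. The same 5 were called lower in HFD-vehicle than in CD-vehicle skin, where 0.956% of all genes were lower and 2.18% were called in either direction, with a median of -1.44 over the 7 against -0.01 over all genes. There 4 of the 7 (Fos, Fosb, Atf3 and Jun) did not overlap, as for 2.3% of all genes. All 5 CD-vehicle mice lay above the other 15 in 108 genes (0.487%), Fos, Fosb, Jun and Atf3 among them. Both comparisons share the CD-vehicle mice, and nothing is read from these counts. In whole skin, fewer cells of a type and less RNA per cell cannot be told apart.

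The interaction, the IMQ effect on HFD minus the IMQ effect on CD, also contains the CD-vehicle mice and restates the choice of Fos, Fosb and Atf3. It was called higher for 4 of the 7, as for 0.473% of all genes (0.663% in either direction), from which nothing is read. It was 3.31 ± 0.58 for Fos, 2.28 ± 0.34 for Fosb, 2.34 ± 0.45 for Atf3 and 1.21 ± 0.22 for Jun (log2, SE). Junb had 1.73 ± 0.45 and was not called, but it was called without CD-vehicle mouse 4, without CD-vehicle mouse 5 and with the replicate number as a block.

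**Figure D2:**
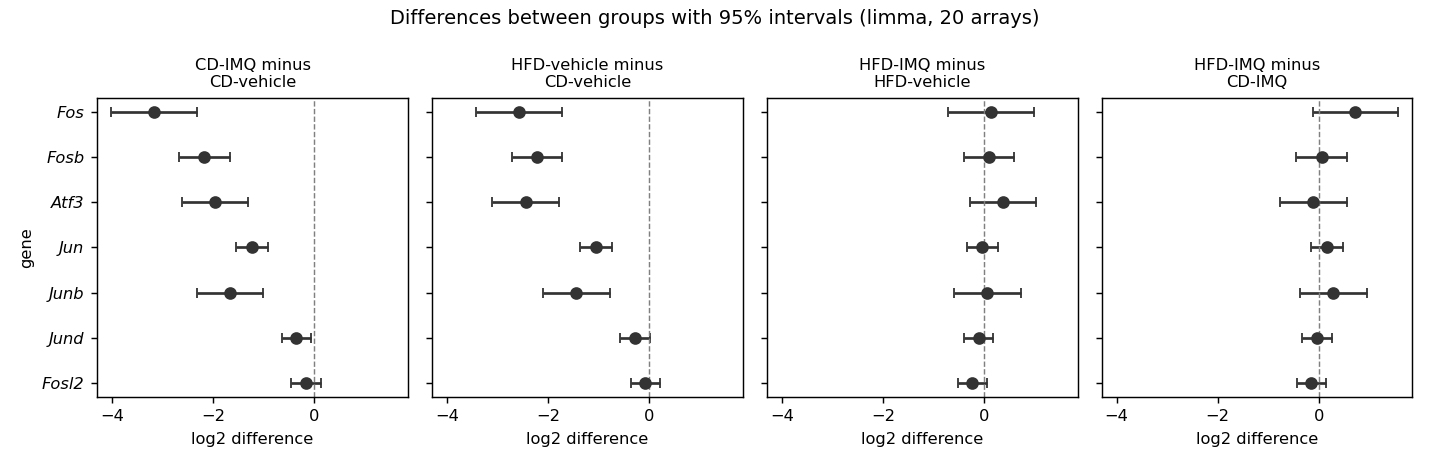
Log2 differences of the 7 AP-1 genes in 4 comparisons of 2 groups, with 95% confidence intervals from limma. The intervals of Fos, Fosb, Atf3, Jun and Junb lie below 0 for CD-IMQ against CD-vehicle and for HFD-vehicle against CD-vehicle, that of Jund also does for CD-IMQ against CD-vehicle, and every interval spans 0 for HFD-IMQ against HFD-vehicle and for HFD-IMQ against CD-IMQ.

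The comparisons without CD-vehicle skin were tested for Fosl2, Jun, Junb and Jund, whose levels the rule did not use. In HFD-IMQ against HFD-vehicle skin 0 of these 4 passed, where 5.89% of all genes did. Fosl2 differed by -0.23 ± 0.14 (95% interval -0.52 to 0.06, limma adjusted p = 0.452) and Jund by -0.10 ± 0.14 (-0.39 to 0.19, adjusted p = 0.811). Jund was tested by its brighter feature alone. Its second feature ran the other way, with means of 5.26 in HFD-IMQ and 4.91 in HFD-vehicle skin. Jun differed by -0.03 ± 0.15 (-0.34 to 0.29, adjusted p = 0.969) and Junb by 0.07 ± 0.32 (-0.60 to 0.73, adjusted p = 0.961). The interval of Junb leaves room for a difference of up to 0.73 on the log2 scale, so that a p above the threshold does not show equal levels. Fos, Fosb and Atf3, which were chosen for being low in both of these groups, differed by 0.14 ± 0.41, 0.11 ± 0.24 and 0.38 ± 0.32 on the log2 scale. None of the 4 genes tested had an unadjusted limma p below 0.05, where 16.7% of all genes did.

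The diets were set against each other after imiquimod in HFD-IMQ and CD-IMQ skin. None of Fosl2, Jun, Junb and Jund passed, as no gene of the array did: limma called 0 of 22180 genes (0.0%), and 2289 genes (10.3%) had an unadjusted p below 0.05. Junb differed by 0.29 ± 0.32 (95% interval -0.37 to 0.95, limma adjusted p = 0.794) and Jun by 0.16 ± 0.15 (-0.16 to 0.48, adjusted p = 0.750). Fosl2 differed by -0.14 ± 0.14 (-0.43 to 0.15, adjusted p = 0.765) and Jund, again by its brighter feature, by -0.03 ± 0.14 (-0.32 to 0.26, adjusted p = 0.962). Missing the threshold does not show that these genes were alike on both diets, and for Junb the interval includes an almost 2-fold difference. Fos differed by 0.73 ± 0.41 (95% interval -0.12 to 1.58), Fosb by 0.06 ± 0.24 and Atf3 by -0.10 ± 0.32, as a description. Without single mice the difference of Fos ranged from 0.51 to 1.11.

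The choice of the genes did not use the deviations of single mice from their group mean, and these tended to run the same way across AP-1 genes. In CD-vehicle mice 1 and 2 all 7 genes lay above the group mean and in mouse 3 it was 6 of 7, whereas in mouse 4 it was 1 of 7 and in mouse 5 it was 0. All 7 lay above the mean in HFD-IMQ mouse 1 and in CD-IMQ mouse 1, and all 7 lay below it in HFD-IMQ mouse 4. HFD-vehicle mouse 4 and CD-IMQ mouse 4 had 6 of 7 below. Mouse 4 thus had 6 or 7 of the 7 below in every group. Mouse 1 had all 7 above in HFD-IMQ, CD-IMQ and CD-vehicle skin and 4 of 7 in HFD-vehicle skin. The replicate numbers mark no shared litter or day in the labels, and their part in the correlations below was not tested.

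**Figure D3:**
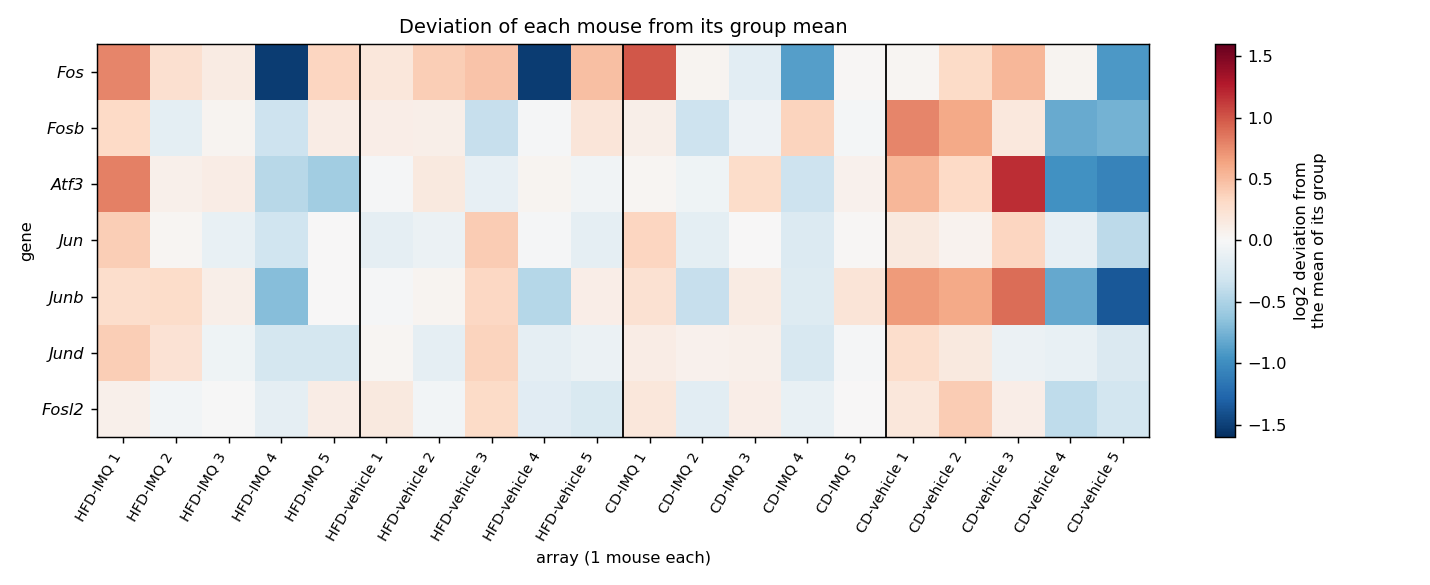
Deviation of each AP-1 gene (rows) from its group mean in each of the 20 mice (columns, grouped as HFD-IMQ, HFD-vehicle, CD-IMQ and CD-vehicle), in log2 units by colour. All 7 genes share a direction in HFD-IMQ mice 1 and 4, in CD-IMQ mouse 1 and in CD-vehicle mice 1, 2 and 5.

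Over the 20 arrays, the deviations of all 21 pairs of AP-1 genes correlated positively (Pearson r from 0.30 to 0.84), and 12 passed a two-sided permutation test within groups at an adjusted p below 0.05 over the 21 pairs, 11 by Spearman's rho. Junb and Atf3 had the highest r, 0.84 (rho 0.75 with p = 0.00647, permutation p of r = 0.00159, adjusted 0.0105), and 0.72 without the 2 arrays farthest from the median. Only 0.0676% of all genes had an r with Junb as high as Atf3 did. Jun and Junb had r = 0.75 (rho 0.87 with p = 7e-05, permutation p of r = 0.0001, adjusted 0.0021, 0.70 without the 2 farthest arrays), and 0.176% of all genes reached that r with Jun.

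Fos went with Junb (r = 0.65, rho 0.60 with p = 0.00561, permutation p of r = 0.00034, adjusted 0.00357) and with Jun (r = 0.65, rho 0.62 with p = 0.0067, permutation p of r = 0.00693, adjusted 0.0162). Fosl2, which separated no groups, still went with Junb (r = 0.77, rho 0.76 with p = 0.00318, permutation p of r = 0.00309, adjusted 0.0108) and with Jun (r = 0.66, rho 0.71 with p = 0.00163, permutation p of r = 0.00399, adjusted 0.012). Jund went with Jun (r = 0.71, rho 0.72 with p = 0.00106, permutation p of r = 0.002, adjusted 0.0105). In all pairs Jund stands for its brighter feature, and its second feature was not correlated. Fosb passed with none of the other 6, and its closest partner was Junb (r = 0.75, rho 0.51 with p = 0.096, permutation p of r = 0.0363, adjusted 0.053). Without the 2 arrays farthest from the median, the r of these pairs was 0.61 for Fos with Junb, 0.74 for Fos with Jun, 0.71 for Fosl2 with Junb, 0.77 for Fosl2 with Jun, 0.61 for Jun with Jund and 0.55 for Fosb with Junb.

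Fewer pairs passed without the CD-vehicle mice. Over the 15 arrays of the other 3 groups, a choice made after seeing the data, 3 of the 21 pairs passed, 10 had an unadjusted permutation p below 0.05, and r was positive in 19 with a range of -0.18 to 0.84. The 3 were Fos with Junb (r = 0.84, permutation p = 0.00442, adjusted 0.0309, rho 0.67, adjusted 0.0514), Jun with Jund (r = 0.78, permutation p = 0.002, adjusted 0.0233, rho 0.71, adjusted 0.0423) and Fosl2 with Jun (r = 0.71, permutation p = 0.00222, adjusted 0.0233, rho 0.62, adjusted 0.065). By Spearman's rho 3 pairs passed as well, namely Jun with Jund, Jun with Junb (rho 0.86, adjusted permutation p = 0.013) and Junb with Jund (rho 0.79, adjusted permutation p = 0.0188). Junb with Atf3, the highest pair over 20 arrays, had r = 0.49 over the 15 (permutation p = 0.165, adjusted 0.266, rho 0.44, adjusted 0.249) and 0.44 without the 2 arrays farthest from the median. Fosb had r of 0.26 with Junb, 0.03 with Jun and -0.18 with Jund there, where its level varied little. Without the 2 arrays farthest from the median the r was 0.58 for Fos with Junb, 0.54 for Jun with Jund and 0.59 for Fosl2 with Jun.

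**Figure D4:**
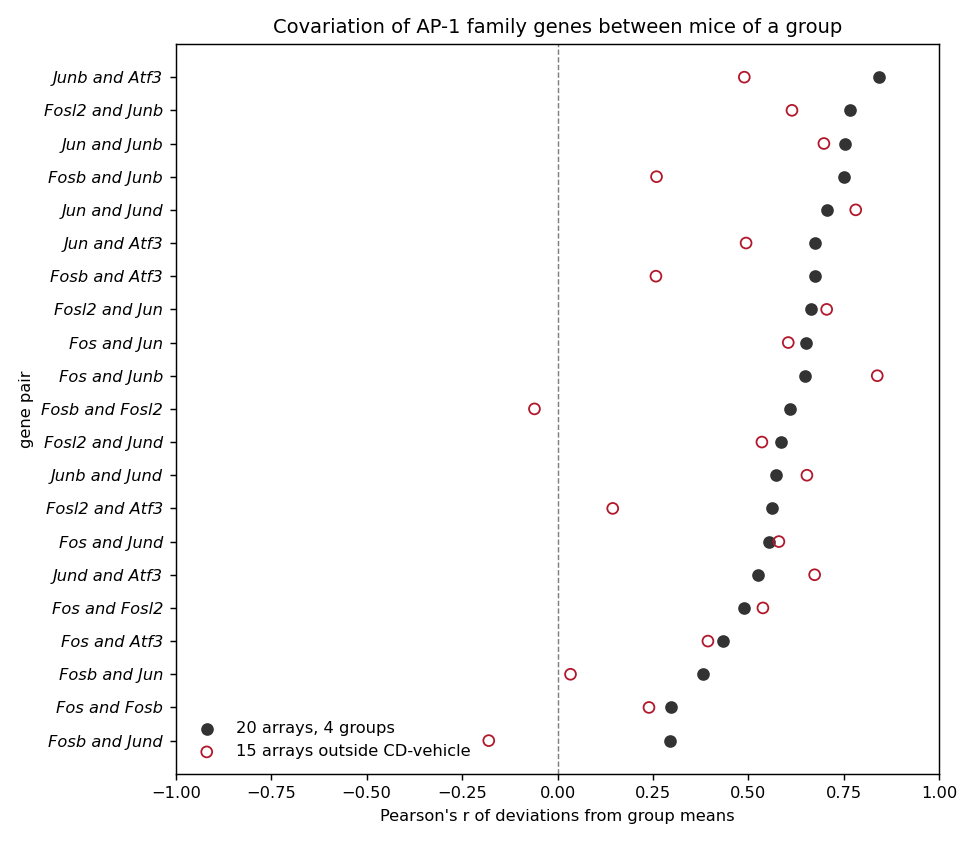
Pearson r of the deviations from group means for the 21 pairs of AP-1 genes, over all 20 arrays and over the 15 arrays outside CD-vehicle. Over 20 arrays all r are positive, between 0.30 and 0.84; over 15 arrays the pairs with Fosb and some with Atf3 are nearer to 0.

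Set against summed levels of the other gene lists, the deviation of Fos followed that of the other immediate-early genes (r = 0.55, permutation p = 0.0008, adjusted 0.0136 over 17 measures, rho 0.50, adjusted 0.224 by Spearman's rho, 0.56 without the 2 farthest arrays). It had r = -0.62 with neutrophil markers (permutation p = 0.0116, adjusted 0.0988, rho -0.61, -0.53 without the 2 farthest arrays) and 0.46 with heat shock genes (permutation p = 0.0812, adjusted 0.419, rho 0.40, 0.36 without the 2 farthest arrays). Only the other immediate-early genes passed, by Pearson's r, and no measure passed by Spearman's rho.

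By likeness over the 20 arrays, which mostly reflects the distance of CD-vehicle mice from the rest, the genes nearest to Fos were Dusp1 (Pearson r = 0.97), Zfp36 (0.94), Ier2 (0.93), Ccn1 (0.93) and Klf6 (0.92). Dusp1 removes phosphate from MAP kinases and Zfp36 promotes the decay of short-lived transcripts. Jun was nearest to Dusp1 (0.95) and Zfp36 (0.95), Junb to Ier2 (0.97) and Btg2 (0.94), and Fosb (0.96) and Atf3 (0.96) to Nr4a1, a nuclear receptor gene of the immediate-early class. Fosl2 and Jund had looser neighbours. Fosl2 was nearest to Tbc1d10a (0.80), with Srf at rank 5 (0.76). Jund was nearest to Vmn1r83 (0.82) and Akap8l (0.80), with Per1 at rank 3 (0.80). In deviations from group means, Dusp1 again came first for Fos (0.86) and Ier2 for Junb (0.94). Fosb came nearest to Pdzd9 (0.88), with Nr4a1 at rank 4 (0.80). Jun came nearest to Runx1 (0.87), Fosl2 to Midn (0.88), Jund to Zswim6 (0.88) and Atf3 to Bcl10 (0.88) by that measure. All these r are over 20 arrays and are given as a description.

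Many other immediate-early genes were also lower in CD-IMQ and in HFD-vehicle than in CD-vehicle skin. Of 30 measured, 16 were lower and 2 higher in CD-IMQ than in CD-vehicle skin, with a median log2 difference of -0.66, where 7.02% of all genes were lower and 3.91% higher. In HFD-vehicle against CD-vehicle skin 13 were lower and 0 higher, with a median of -0.55, where 0.956% of all genes were lower and 1.22% higher. Ccn1, a matrix protein gene, was 11.5-fold lower in CD-IMQ (-3.52 ± 0.30) and 7.94-fold lower in HFD-vehicle skin (-2.99 ± 0.30). The transcription factor gene Egr1 was 9.94-fold lower in CD-IMQ (-3.31 ± 0.35) and 5.06-fold lower in HFD-vehicle skin (-2.34 ± 0.35), and Nr4a1 was 6.56-fold lower in CD-IMQ and 9.41-fold lower in HFD-vehicle skin. This list was compiled with these levels known. In HFD-IMQ against HFD-vehicle skin 1 of the 30 passed, where 5.89% of all genes did. This was Klf10, a target of TGF-beta signalling, which rose 1.53-fold (0.61 ± 0.15, limma adjusted p = 0.0128). In a fit on these 2 groups alone 3 passed, and 2 did without CD-vehicle mouse 4 or without HFD-vehicle mouse 3.

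Of 11 MAP kinase phosphatases, 2 were lower and 1 higher in CD-IMQ than in CD-vehicle skin, where 7.02% of all genes were lower and 3.91% higher. In HFD-vehicle against CD-vehicle skin 1 was lower, where 0.956% of all genes were. Dusp1 was the lowest in both, 7.38-fold lower in CD-IMQ (-2.88 ± 0.30) and 5.82-fold lower in HFD-vehicle skin (-2.54 ± 0.30). None of the 11 passed in HFD-IMQ against HFD-vehicle skin, where 5.89% of all genes did. Dusp16 had the smallest p there (-0.33 ± 0.12, limma adjusted p = 0.142), though 1 of the 11 passed without HFD-vehicle mouse 3.

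Of 24 kinases and factors upstream of AP-1, 1 rose and 1 fell in HFD-IMQ against HFD-vehicle skin, where 3.65% of all genes rose and 2.24% fell: Mapk14, which encodes the p38 alpha kinase, rose 1.41-fold (0.50 ± 0.10, limma adjusted p = 0.00204), and the Raf kinase gene Braf fell by 0.52 ± 0.13 on the log2 scale (adjusted p = 0.0202); 1 passed without HFD-IMQ mouse 1. In CD-IMQ against CD-vehicle skin 2 were higher and 3 lower, led by Mapk13, 2.10-fold higher, where 3.91% of all genes were higher and 7.02% lower, and in HFD-vehicle against CD-vehicle skin 0 passed, where Mapk11 had the smallest p. Of 18 other bZIP genes, 2 rose in HFD-IMQ against HFD-vehicle skin: Batf, a Jun partner of lymphocytes and dendritic cells, rose 1.75-fold (0.80 ± 0.16, limma adjusted p = 0.00263) and Nfe2l2, which governs the antioxidant response, rose 1.31-fold (0.39 ± 0.10, adjusted p = 0.0198). Without HFD-vehicle mouse 2, HFD-IMQ mouse 1 or HFD-IMQ mouse 2, 1 of the 18 passed. Atf2, Atf4 and Atf7 were lower in CD-IMQ than in CD-vehicle skin, by 1.35-fold, 1.42-fold and 1.39-fold, and 1 of the 18 passed without CD-vehicle mouse 2 or 3 or without CD-IMQ mouse 4 or 5.

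Genes reported as AP-1 targets were more often higher than lower after imiquimod. In HFD-IMQ against HFD-vehicle skin 10 of 25 rose and 2 fell, where 3.65% of all genes rose and 2.24% fell. The alarmin genes S100a8 (27.5-fold, 4.78 ± 0.37, limma adjusted p = 2.07e-08) and S100a9 (27.2-fold, 4.77 ± 0.29, adjusted p = 1.32e-09) rose most, with Sprr1b, a cornified envelope precursor gene (5.56-fold, 2.48 ± 0.21, adjusted p = 6.71e-08), and the cytokine gene Il1b (4.48-fold, 2.16 ± 0.43, adjusted p = 0.00237). In CD-IMQ against CD-vehicle skin 10 were higher and 3 lower, against 3.91% and 7.02% of all genes, and in HFD-vehicle against CD-vehicle skin 6 were higher and 2 lower, against 1.22% and 0.956% of all genes. Together these 8 were 4 in a fit on these 2 groups alone, and 5 without CD-vehicle mouse 1, 3 or 5 or without HFD-vehicle mouse 1.

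Lists of other stress responses were counted against the same shares of all genes: 3.65% higher and 2.24% lower in HFD-IMQ against HFD-vehicle, 3.91% and 7.02% in CD-IMQ against CD-vehicle, and 1.22% and 0.956% in HFD-vehicle against CD-vehicle skin. Of 11 heat shock genes, 1 fell in HFD-IMQ against HFD-vehicle skin, Hspa5 (-0.40 ± 0.10, limma adjusted p = 0.0195), and 1 was higher and 2 lower in CD-IMQ than in CD-vehicle skin. Of 13 integrated stress response genes, 1 rose in HFD-IMQ against HFD-vehicle skin, the cystine transporter gene Slc7a11 (4.70-fold, 2.23 ± 0.25, adjusted p = 4.08e-06), and 1 was higher and 3 lower in CD-IMQ than in CD-vehicle skin. Of 10 hypoxia response genes, 3 rose in HFD-IMQ against HFD-vehicle skin, with the glucose transporter gene Slc2a1 first (2.29-fold, 1.20 ± 0.16, adjusted p = 4.18e-05), and 3 were higher and 3 lower in CD-IMQ than in CD-vehicle skin. In HFD-vehicle against CD-vehicle skin the counts were 0 heat shock genes, 1 higher and 2 lower integrated stress response genes, and 2 lower hypoxia response genes, Adm and Vegfa. These small counts moved when single mice were left out, for heat shock genes between 0 and 3 in CD-IMQ against CD-vehicle and between 0 and 2 in HFD-IMQ against HFD-vehicle skin, and for hypoxia response genes between 0 and 2 in HFD-vehicle against CD-vehicle skin. Integrated stress response genes called, 4 in all in CD-IMQ against CD-vehicle skin, ranged from 2 to 5, and those in HFD-vehicle against CD-vehicle skin, 3 in all, from 1 to 3. In HFD-IMQ against CD-IMQ skin no gene of any of the 8 lists passed.

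Marker genes of skin cell types also differed between the groups. The 7 epidermal markers summed to 62.6 to 66.3 in HFD-IMQ, 60.1 to 63.2 in HFD-vehicle, 63.3 to 66.4 in CD-IMQ and 52.3 to 59.2 in CD-vehicle skin (summed log2 values per mouse), so that CD-vehicle skin was lowest without overlap, and none of the 7 was at or below the median of all values. Of them 5 were higher in CD-IMQ and 3 in HFD-vehicle than in CD-vehicle skin, where 3.91% and 1.22% of all genes were. Between mice of a group, epidermal markers and Fos had r = 0.03 (permutation p = 0.904, adjusted 0.96 over 17 measures, rho 0.15, 0.01 without the 2 farthest arrays). The 9 hair follicle markers summed to 24.2 to 38.0 in HFD-IMQ, 59.9 to 86.2 in HFD-vehicle, 25.1 to 29.0 in CD-IMQ and 25.9 to 51.5 in CD-vehicle skin, with Krt31 and Msx2 at or below the median of all values.

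The 5 mast cell markers summed to 29.8 to 31.6 in HFD-IMQ, 26.7 to 30.4 in HFD-vehicle, 28.4 to 31.7 in CD-IMQ and 31.1 to 32.3 in CD-vehicle skin. In HFD-vehicle against CD-vehicle skin 2 of them were lower, where 0.956% of all genes were. Of 6 fibroblast markers 4, and of 7 adipocyte markers 2, were lower in CD-IMQ than in CD-vehicle skin, where 7.02% of all genes were. Neutrophil markers (3 of 7) and macrophage markers (4 of 8) were higher in that comparison, where 3.91% of all genes were. Neutrophil (4 of 7) and macrophage markers (7 of 8) rose in HFD-IMQ against HFD-vehicle skin, where 3.65% of all genes rose, S100a8, S100a9 and Il1b among them. There the neutrophil gene Cxcr2 rose 2.77-fold (1.47 ± 0.18, limma adjusted p = 9.43e-06) and the macrophage gene Adgre1 rose 3.79-fold (1.92 ± 0.18, adjusted p = 4.42e-07). The neutrophil markers summed to 22.1 to 27.5 in HFD-IMQ, 18.04 to 20.14 in HFD-vehicle, 21.4 to 24.8 in CD-IMQ and 18.5 to 20.5 in CD-vehicle skin, with Ly6g, Ngp and Camp at or below the median of all values, and the macrophage markers to 70.2 to 74.3, 61.8 to 67.1, 68.8 to 71.8 and 65.8 to 68.2 in the same groups. The part of these cell types in the levels of the AP-1 genes and of the listed AP-1 targets was not tested. The correlations of marker lists between mice given above are with Fos alone.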

How the data were processed

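RNA of 20 skin samples (300 ng each) was hybridised to Affymetrix arrays, 1 per mouse. The values are log2 values deposited by the authors, made with RMA in the affy package per the submitters' processing notes; the sources used here name neither versions nor scan batches, nor say if the 20 arrays were normalised in 1 run. Array data have no read depth, and 5 mice per group limit the precision.

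Of 41345 features 23521 carried 1 gene symbol, 1814 several and 16010 none; symbols came from the platform annotation, and 23328 matched RefSeq. Where a gene had several single-symbol features, the one of highest mean was kept, which gave 22180 genes. Group means were fitted over 20 arrays with limma 3.58.1 (R 4.3.3), with 5 contrasts, eBayes and Benjamini-Hochberg adjustment over all genes, and a gene was called at an adjusted p below 0.05. Correlations used deviations from group means, permuted 100000 times within groups, so that 1e-05 is the smallest p possible. The 8 named genes had been planned with 28 pairs; Fosl1 was not analysed, which left 21. The fit was tested on simulated data.

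The AP-1 genes, the 8 pathway lists and the 13 marker lists were chosen with earlier results of these data known. From each list, the text names up to 4 called genes with the largest change in a comparison, or the gene with the smallest p, leaving some out for length; as most alike, the 5 genes with the highest r were taken, without predicted genes and small RNAs. Promoters and motifs were read with Python 3.11.15 from RefSeq sequences, and all 7 genes matched. Over all genes, residuals correlated above 0.1 in 4 of 30 comparisons of arrays with the same replicate number (range -0.217 to 0.320). That measure takes all genes together, so it cannot show whether the AP-1 genes share an effect of the replicate number. Nothing says whether mice of a group shared a cage or litter.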

Additional observations from a re-analysis of the deposited data

Results flagged for a closer look

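In 3 of the 28 combinations of an AP-1 gene and a group, 1 mouse lay far from the other 4 of its group by Dixon's criterion for 5 samples, which chance exceeds in about 1 of 20 groups. Fos was low in HFD-IMQ mouse 4, at 4.06, with a gap of 0.718 of the range of the group, and in HFD-vehicle mouse 4, at 3.92, with a gap of 0.85. Jun was high in HFD-vehicle mouse 3, at 6.59, with a gap of 0.77.

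The interaction, the IMQ effect on HFD minus that on CD, was past the limma threshold and higher for 4 of the 7 AP-1 genes, as for 0.473% of all genes. It was 3.31 for Fos, 2.28 for Fosb, 2.34 for Atf3 and 1.21 for Jun on the log2 scale. For Fos, Fosb and Atf3 it restates the choice of the genes, which were picked for being high in CD-vehicle skin alone. Jun was not used in that choice, but its interaction contains the same CD-vehicle mice and is not independent of it. All 4 values are a description and not a finding.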

How the results depend on the processing

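Besides leaving out each of the 20 mice, 7 other settings were tried. AP-1 genes called stayed at 5 for CD-IMQ against CD-vehicle and at 0 for HFD-IMQ against HFD-vehicle and for HFD-IMQ against CD-IMQ in every one of them. In the fit used above, 10.9%, 5.89% and 0.0% of all genes were called in these comparisons, in the same order. Without single mice the AP-1 genes called ranged from 4 to 5 for HFD-vehicle against CD-vehicle and from 4 to 5 for the interaction, and Junb was the gene that changed. Counts of AP-1 genes that involve CD-vehicle skin restate the choice of the genes in part, so nothing is read from their steadiness. Signs of uncalled differences turned in HFD-IMQ against HFD-vehicle for Jund with the mean of its features (0.12), for Jun with array weights (0.057), for Jun without single mice (-0.12 to 0.077; HFD-vehicle 3, HFD-IMQ 3 or 4) and for Junb without single mice (-0.048 to 0.24; HFD-vehicle 4, HFD-IMQ 1 or 2), and in HFD-IMQ against CD-IMQ for Jund with arrays centred (0.016) and without single mice (-0.13 to 0.039; HFD-IMQ 4 or 5). Without single mice, signs also turned for Fos in HFD-IMQ against HFD-vehicle (-0.24 to 0.52), for Atf3 (-0.30 to 0.04) and Fosb (-0.02 to 0.15) in HFD-IMQ against CD-IMQ, and for Fosl2 in HFD-vehicle against CD-vehicle (-0.17 to 0.03) and in the interaction (-0.17 to 0.03). The cause was not tested. Pairs of AP-1 genes passing ranged from 9 to 16 without single mice and came to 3 on the 15 arrays outside CD-vehicle, an alternative with fewer samples.

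All genes called ranged without single mice from 1741 to 2636 for CD-IMQ against CD-vehicle, 990 to 1370 for HFD-IMQ against HFD-vehicle, 231 to 574 for HFD-vehicle against CD-vehicle, 0 to 20 for HFD-IMQ against CD-IMQ (20 without HFD-IMQ 4) and 57 to 198 for the interaction. HFD-vehicle against CD-vehicle gave 137 with only the groups compared, and HFD-IMQ against CD-IMQ gave 1 with dim genes left out and 1 with the mean of all features. Genes higher and lower numbered 868 and 1556 for CD-IMQ against CD-vehicle, or 1108 and 1301 after another quantile normalization; for the interaction 105 and 42, or 58 and 41 after it and 134 and 30 after centring; and for HFD-vehicle against CD-vehicle 271 and 212, or 53 and 84 with only those groups. With the replicate number as a block, AP-1 genes called were 5, 0, 5 and 0 in the comparisons in the order CD-IMQ against CD-vehicle, HFD-IMQ against HFD-vehicle, HFD-vehicle against CD-vehicle and HFD-IMQ against CD-IMQ, and 5 for the interaction, with 2247, 1209, 361, 0 and 124 genes called in all.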
